A study of Homo sapiens with 4 samples.

Results

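The pyruvate dehydrogenase (PDH) complex, the kinases that switch it off and the phosphatases that switch it back on were followed as 10 genes of the 23228 gene symbols that were counted. They comprise 4 genes of the complex itself (PDHA1, PDHB, DLAT and PDHX), 4 PDH kinases (PDK1, PDK2, PDK3 and PDK4) and 2 PDH phosphatases (PDP1 and PDP2). The genes were grouped by function around PDK1, which was selected because its counts were lower with treatment in these same samples, so its values are given as a description without a p. All 10 genes were found in the counts and all 10 were among the 14473 genes that passed the filter on low counts.

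RNA was sequenced from SKOV3-ALDH+ OCSCs after 24 h with vehicle (2 samples) or with 5 µM LY500307 (2 samples), an agonist of estrogen receptor beta (ERβ). The human SKOV3 line is an established ovarian cancer cell line, and the ALDH+ cells had been sorted for aldehyde dehydrogenase activity with the ALDEFLUOR kit and grown as spheroids. Cells of both groups came from this 1 line and were kept in the same serum-free medium, with B27, EGF, bFGF, hydrocortisone and insulin, and the substance used as vehicle is not named in the labels. The comparison asks which transcripts differ in stem-like ovarian cancer cells when the receptor agonist is present.

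The PDH complex is a very large enzyme of the mitochondrial matrix that converts pyruvate, the end product of glycolysis, into acetyl-CoA for the TCA cycle. PDH kinases phosphorylate the alpha subunit, encoded by PDHA1, and so inactivate the complex, which leaves pyruvate to be reduced to lactate, and PDH phosphatases remove the phosphate and restore activity. PDK1 is a textbook target of the hypoxia factor HIF-1, whereas PDK4 is known as a fasting-responsive kinase gene under the control of PPAR, FOXO and glucocorticoid receptors. Read counts measure transcripts only, so neither the phosphorylation nor the activity of the complex was measured here.

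Between 28841701 and 34943882 reads per sample were counted on genes. The LY500307 replicates differed more from each other than the vehicle replicates did, with a chi-square per degree of freedom of 42.5 against 5.16 between their gene counts. A gene was called when its unadjusted p was below 0.05 and its absolute log2 fold change was above 0.5, the criteria named in the study's methods. With edgeR's quasi-likelihood test, 669 of the 14473 genes tested were called (4.62%), of which 400 were higher with LY500307 (2.76%) and 269 were lower (1.86%). Without LY500307 replicate 1 this number was 1987, and without LY500307 replicate 2 it was 352. After Benjamini-Hochberg adjustment over all genes, edgeR left 0 genes with an adjusted p below 0.05, although 1678 had an unadjusted p below 0.05 and DESeq2 gave 16 genes at an adjusted p below 0.05. Since the smallest two-sided p of an exact permutation test is 0.333 with 2 samples against 2, each call rests on a spread estimated across genes.

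The summed level of 6 epithelial markers was between 283 and 329 CPM in the 4 samples, a level relative to the library total as scaled by edgeR's TMM factors. EPCAM, ERBB2 and KRT18 carried nearly all of it. PAX8 had 0 reads in each sample, which allows up to 3 reads per sample. KRT19 had 0 to 2 reads and KRT8 had 9 to 33 reads, so not every marker on the list was present. The name SKOV3 is the one given by the study and does not rest on these markers. ESR2, which encodes ERβ, had 7 to 12 reads and ESR1 had 0. The 4 markers of blood, vessel and liver cells summed to between 0.0928 and 0.211 CPM. ALDH1A1, ALDH1A2 and ALDH1A3, listed as markers of the sorted activity, summed to between 15.6 and 17.1 CPM. The sort was on enzyme activity, which read counts do not measure. The 3 proliferation markers summed to 1540 and 1504 CPM in the vehicle samples and to 1349 and 1117 CPM in the LY500307 samples, without overlap. The part of this difference in the results on the PDH genes was not tested. Taken singly, MKI67 and TOP2A were lower without overlap. PCNA overlapped between the groups, at 281 and 274 CPM with vehicle and at 289 and 231 CPM with LY500307. In bulk RNA, fewer cells of a type and less RNA per cell cannot be told apart.

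Within the group of 10 genes, PDK1 and PDK4 were called lower, no gene was called higher and 8 genes were not called. PDK1 chose the group, so nothing is read from this count beside the 1.86% of all genes that were called lower. The levels of 5 genes were lower in both LY500307 samples than in either vehicle sample (PDK1, PDK4, PDP2, DLAT and PDHX), those of 5 overlapped between the groups and none was higher without overlap. Over all genes tested, 24.4% were lower without overlap and 24.2% were higher without overlap. The median log2 fold change was -0.11 over the 10 genes and 0.00 over all genes tested. The 8 genes that were not called lay between -0.19 and 0.10 on the log2 scale. For 7 of them the 95% interval stayed within a log2 fold change of 0.5 in either direction, the exception being PDHA1, and a gene that was not called is not thereby shown to be equal between the groups.

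**Figure D1:**
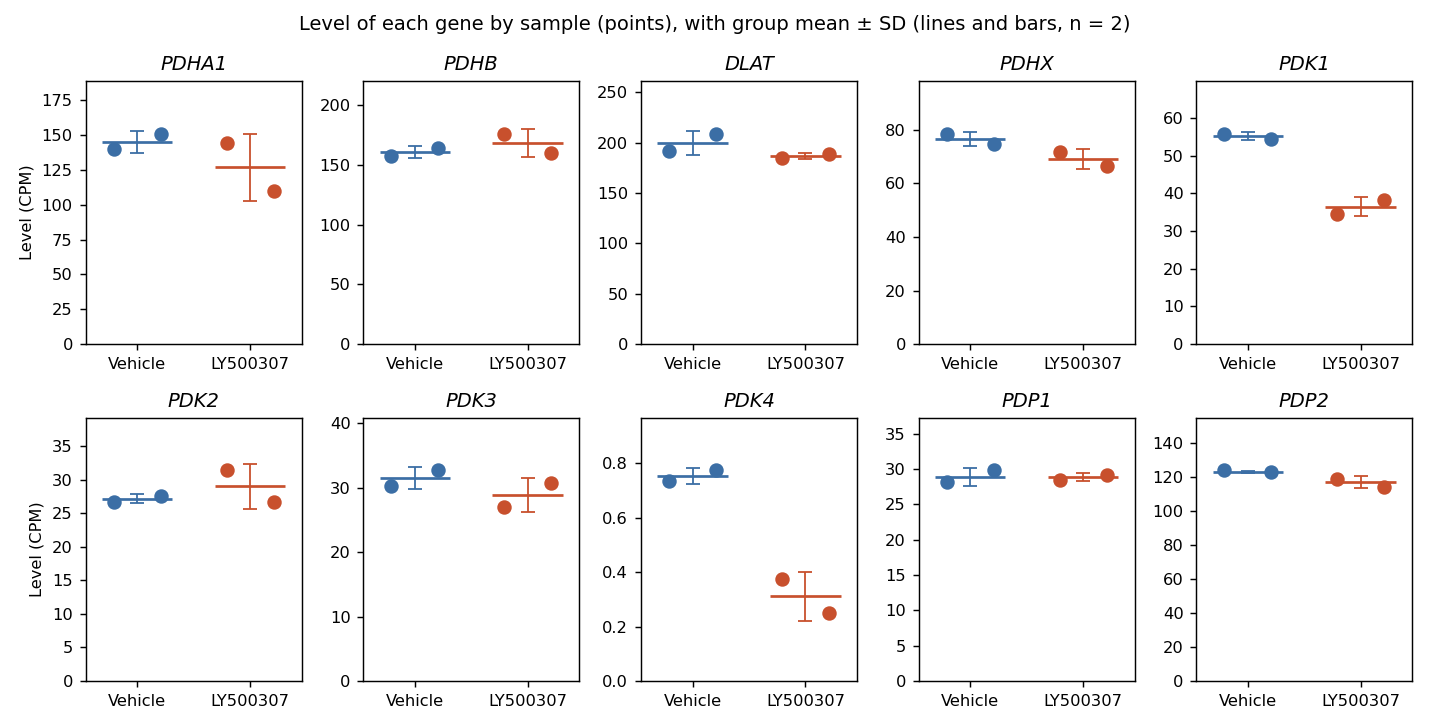
Level of each of the 10 genes in each sample (points, in CPM on axes that start at 0), with the group mean as a line and the SD as a bar (n = 2 per group). PDK1 lies at 55.8 and 54.4 CPM with vehicle and at 34.6 and 38.2 CPM with LY500307, PDK4 is below 1 CPM throughout, and the groups of most other genes lie close together.

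The kinase genes are described first, with the sequence just upstream of their transcription starts, because their log2 fold changes spanned the widest range. PDK1 lies at chr2:173420101-173473397 on the plus strand of GRCh37, PDK2 at chr17:48172101-48189516 on the plus strand, PDK3 at chrX:24483361-24568583 on the plus strand and PDK4 at chr7:95212811-95225828 on the minus strand. One window of 250 bases before an annotated start is printed for each kinase, in lower case and in the direction of transcription. The windows come from RefSeq on GRCh38.p14, a different build from the gene positions above. They are chr2:172555840-172556089 (plus strand) for PDK1, chr17:50095101-50095350 (plus) for PDK2, chrX:24465036-24465285 (plus) for PDK3 and chr7:95596517-95596766 (minus) for PDK4. In the windows of PDK1, PDK2 and PDK3 the capitals mark ACGTG on either strand, the core of the hypoxia response element that HIF-1 binds. In the window of PDK4 they mark GGTCA on either strand, one arm of the estrogen response element.
PDK1: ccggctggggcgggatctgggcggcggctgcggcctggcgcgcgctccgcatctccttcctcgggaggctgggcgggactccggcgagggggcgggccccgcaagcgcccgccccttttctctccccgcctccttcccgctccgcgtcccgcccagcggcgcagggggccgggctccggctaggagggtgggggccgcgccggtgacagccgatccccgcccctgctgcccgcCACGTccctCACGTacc
PDK2: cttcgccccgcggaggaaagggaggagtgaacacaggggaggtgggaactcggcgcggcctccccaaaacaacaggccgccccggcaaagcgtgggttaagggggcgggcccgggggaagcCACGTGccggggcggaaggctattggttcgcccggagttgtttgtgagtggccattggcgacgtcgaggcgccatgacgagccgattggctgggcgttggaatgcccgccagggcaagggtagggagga
PDK3: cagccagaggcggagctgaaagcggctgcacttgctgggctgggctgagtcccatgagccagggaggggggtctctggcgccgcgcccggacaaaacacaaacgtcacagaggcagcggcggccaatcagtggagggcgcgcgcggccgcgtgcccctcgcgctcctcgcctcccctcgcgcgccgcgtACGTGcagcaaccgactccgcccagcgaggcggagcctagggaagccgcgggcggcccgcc
PDK4: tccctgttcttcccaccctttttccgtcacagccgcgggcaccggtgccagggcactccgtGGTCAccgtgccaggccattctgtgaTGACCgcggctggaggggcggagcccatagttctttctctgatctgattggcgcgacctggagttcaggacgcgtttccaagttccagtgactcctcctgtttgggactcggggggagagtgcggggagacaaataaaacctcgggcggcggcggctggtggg

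The PDK1 window holds 2 ACGTG matches, 3 and 12 bases before the start, both on the minus strand and so printed as CACGT. The second annotated PDK1 start, upstream of the first, has no match in its own window. In the printed PDK2 window the single CACGTG is a palindrome and was counted on both strands. The windows before the other annotated PDK2 starts hold no match. The PDK3 window holds 1 match 56 bases before the start, and the PDK4 window holds none. The 9 genes of the group that were matched to RefSeq have 13 windows, those of PDHX overlapping each other, and PDP1 was not matched. ACGTG occurs in 7 of these 13 windows and in 18.5% of 35116 windows of the same length before all annotated starts. GGTCA occurs in 3 of the 13 windows and in 32.6% of all windows. There are 2 matches in the PDK4 window, 2 in the PDHB window and 1 in a PDK2 window that is not printed. Other short motifs were also present in more of the 13 windows than of all windows, CCAAT (the CAAT box core) in 8 against 32% and GGGCGG (the core of the Sp1 GC box) in 10 against 42.6%, so ACGTG was not alone in this. The full palindrome, GGTCA and TGACC with 3 bases of any kind between them, occurs in 0 of the 13 and in 0.0399% of all windows. A match describes letters only, and binding was not measured in these samples.

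PDK1, the kinase gene best known from low-oxygen metabolism, had 1673 and 1546 reads in vehicle replicates 1 and 2 and 1202 and 1234 reads in LY500307 replicates 1 and 2. Its level was 55.8 and 54.4 CPM with vehicle and 34.6 and 38.2 CPM with LY500307. Both treated samples were therefore below both vehicle samples, which is a description only, since PDK1 was selected on these same counts. The group means were 55.1 ± 1.01 CPM and 36.4 ± 2.51 CPM (SD, n = 2 each). The fitted log2 fold change was -0.60 (SE 0.11), which corresponds to a level 33.9% lower with LY500307. Against the vehicle mean, LY500307 replicate 1 stood at -0.67 and replicate 2 at -0.53 on the log2 scale. A correction for exonic GC content brought the log2 fold change to -0.50, just short of the 0.5 that a call requires. The exons of PDK1 overlap those of the antisense RNA PDK1-AS1 over 445 bases, and whether reads were counted by strand is not given in the sources used here.

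PDK4, the kinase gene induced by fasting and fatty acids in muscle and liver, was barely detected. It had 22 reads in each vehicle sample and 13 and 8 reads in LY500307 replicates 1 and 2. These reads correspond to 0.734 and 0.774 CPM with vehicle and to 0.375 and 0.248 CPM with LY500307, again without overlap between the groups. The fitted log2 fold change was -1.26 (SE 0.54), and its 95% interval ran from -2.50 to -0.02. The unadjusted p was 0.0466 and the adjusted p was 0.428 (edgeR quasi-likelihood, Benjamini-Hochberg). The direction was the same in every setting tried, but both criteria were met in only 2 of 8 settings with all samples and in 0 with any 1 sample left out. At this depth the difference in PDK4 rests on a few reads per sample.

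PDK2 and PDK3, the other two kinase genes, were not called. PDK2, which is expressed in most tissues, was at 26.7 and 27.6 CPM with vehicle and at 31.4 and 26.7 CPM with LY500307. LY500307 replicate 1 alone stood above the vehicle samples, and replicate 2 did not. Its log2 fold change was 0.10 (SE 0.14, 95% interval -0.22 to 0.41, adjusted p 0.77 by edgeR quasi-likelihood and Benjamini-Hochberg). Without LY500307 replicate 1 the value was -0.02. PDK3, an X-linked kinase gene, was at 30.3 and 32.7 CPM with vehicle and at 27 and 30.8 CPM with LY500307, so the groups overlapped. Its log2 fold change was -0.13 (SE 0.13, 95% interval -0.43 to 0.18, adjusted p 0.682 by edgeR in the same way). The exons of PDK2 share 2113 bases with SAMD14 on the other strand, a gene at 2.54 to 3.67 CPM.

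The make-up of the kinase reads shifted with PDK1. Of all reads on the 4 kinase genes, PDK1 took 49.2% (95% interval by Wilson's method 47.5 to 50.8) and 47.1% (45.4 to 48.8) in the vehicle samples. It took 37.1% (35.5 to 38.8) and 39.8% (38.1 to 41.6) in the LY500307 samples. The intervals cover counting error only, not the spread between samples. PDK1 was selected on these same counts, so the intervals of its share are no support for a difference, which was not tested. The share of PDK2 was 23.5% and 23.9% with vehicle and 33.6% and 27.8% with LY500307, and the share of PDK3 was 26.7% and 28.3% with vehicle and 28.9% and 32.1% with LY500307. PDK4 never exceeded 0.67% of the kinase reads. These are shares of reads that are not scaled to gene length, so the kinases are not ranked by them, and a share that grows need not mean more reads of that gene.

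**Figure D2:**
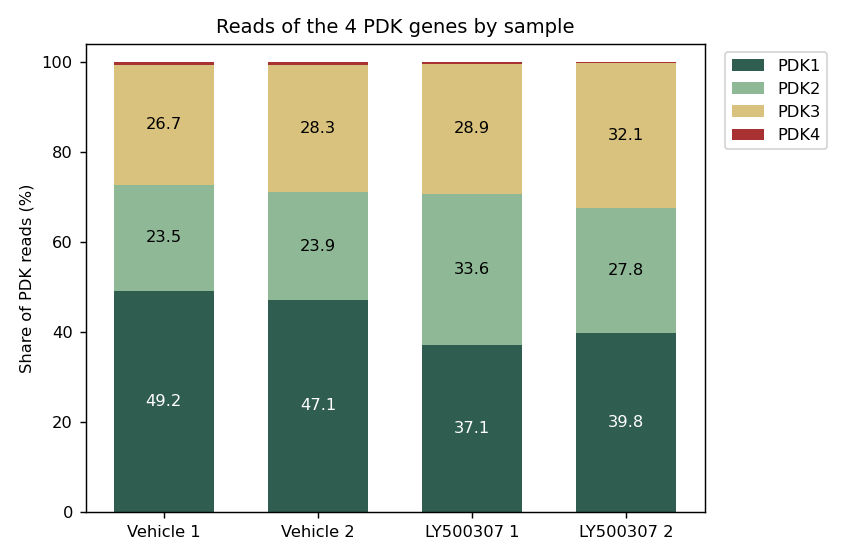
Share of each kinase gene (colours) in the summed reads of PDK1, PDK2, PDK3 and PDK4, in percent, for the 4 samples, not scaled to gene length. PDK1 takes 49.2% and 47.1% of the reads with vehicle and 37.1% and 39.8% with LY500307, and PDK4 is a thin line at the top.

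Ratios of reads within a sample do not depend on how samples are scaled. There were 2.09 and 1.97 PDK1 reads per PDK2 read with vehicle and 1.10 and 1.43 with LY500307. Per PDK3 read there were 1.84 and 1.66 PDK1 reads with vehicle and 1.28 and 1.24 with LY500307. The difference in PDK1 therefore appeared against both of the other well-expressed kinase genes. These ratios carry no correction for exonic GC content, which was 40.1% for PDK1, 58.1% for PDK2 and 40.9% for PDK3. With the GC correction the log2 fold changes of these genes were -0.50, 0.02 and -0.04, in that order. Per read of PDHA1, the substrate of the kinases, there were 0.4 and 0.360 PDK1 reads with vehicle and 0.240 and 0.346 with LY500307, where LY500307 replicate 2 lay close to the vehicle samples. The summed kinase reads per summed phosphatase read were 0.749 and 0.757 with vehicle and 0.633 and 0.669 with LY500307, without overlap. All these ratios hold the PDK1 counts on which the gene was selected, and they were not tested.

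The order of the genes by level can be read only per length. With merged exons of the GRCh37 annotation as the length, the vehicle means per kilobase were 34.1 CPM for PDHB, 29.3 for PDHA1, 26.5 for DLAT and 20.6 for PDHX. The regulators were lower, at 15.0 CPM per kilobase for PDP2, 5.17 for PDP1, 4.96 for PDK2, 3.71 for PDK1, 1.80 for PDK3 and 0.166 for PDK4. Neighbours in this order did not overlap between their vehicle samples, except PDP1 and PDK2. Genes of the catalytic complex thus stood above those of its kinases with each kind of length, and PDK4 was lowest with each. The order within the complex also depended on the length. With the longest transcript PDHB, at 36 CPM per kilobase, was below PDHA1 (41.9) and DLAT (40.7), and PDK2 (8.07) was above PDP1 (6.64). The place of PDK3 depended on the transcript assumed, whose length was 17456 bases by merged exons and 1741 bases for the canonical transcript. With the canonical transcript, PDK3 was at 18.1 CPM per kilobase and led the kinases.

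**Figure D3:**
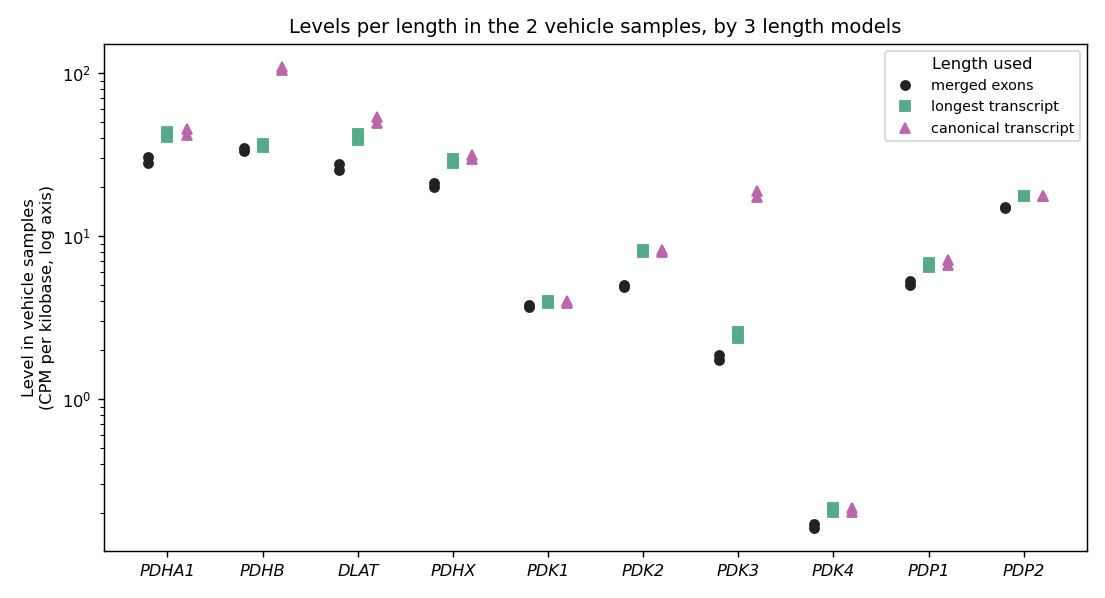
Level per kilobase (CPM per kilobase, log axis) of the 10 genes in the 2 vehicle samples, for 3 definitions of gene length. PDK4 is lowest with each definition, and PDK3 moves most, from 1.80 with merged exons to 18.1 with the canonical transcript.

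In LY500307-treated OCSCs the merged-exon level of PDK1 was 2.45 CPM per kilobase. The share of PDK1 in the summed length-scaled level of the 4 kinases was 34.9 ± 1.13% with vehicle and 25.9 ± 2.62% with LY500307 (SD, n = 2 each). With the canonical transcript lengths these shares were 12.9% and 9.27%, so the size of the share depends on the length used. PDK2 held 46.6 ± 0.390% with vehicle and 55.9 ± 4.61% with LY500307 by merged exons.

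The phosphatase genes were close to level. PDP1, which encodes a calcium-stimulated phosphatase, was at 28.1 and 29.8 CPM with vehicle and at 28.4 and 29.2 CPM with LY500307. The treated samples lay between the vehicle samples, and the log2 fold change was -0.01 (SE 0.12, 95% interval -0.29 to 0.27, adjusted p 0.98 by edgeR quasi-likelihood and Benjamini-Hochberg). PDP2, the gene of the second phosphatase catalytic subunit, was at 124 and 123 CPM with vehicle and at 119 and 114 CPM with LY500307. Its groups did not overlap, but the log2 fold change was only -0.08 (SE 0.09, 95% interval -0.30 to 0.14, adjusted p 0.725 by edgeR in the same way). There were 0.227 and 0.243 PDP1 reads per PDP2 read with vehicle and 0.238 and 0.256 with LY500307, which overlap.

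None of the 4 genes of the complex itself was called. PDHA1 (chrX:19362011-19379836, plus strand, GRCh37) encodes the alpha subunit that carries the regulatory phosphorylation sites. Its level was 140 and 151 CPM with vehicle and 144 and 110 CPM with LY500307, so LY500307 replicate 2 alone was low. The log2 fold change was -0.19 (SE 0.14, 95% interval -0.51 to 0.13, adjusted p 0.556 by edgeR quasi-likelihood and Benjamini-Hochberg), and leaving out LY500307 replicate 1 or replicate 2 gave -0.39 or -0.01. PDHB (chr3:58413357-58419584, minus strand), the gene of the beta subunit that pairs with it, was at 157 and 164 CPM with vehicle and at 176 and 160 CPM with LY500307, with a log2 fold change of 0.06 (SE 0.10, 95% interval -0.17 to 0.30). Because both subunits form 1 enzyme, their ratio was computed, and it was 0.888 and 0.919 PDHA1 reads per PDHB read with vehicle and 0.819 and 0.690 with LY500307. The groups did not overlap in this ratio, which was not tested. PDHA2, an intronless copy of PDHA1 known from testis, had 4.64 and 5.49 CPM with vehicle and 4.29 and 2.85 CPM with LY500307. Its sequence resembles that of PDHA1, so part of these reads may be shared between the copies.

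DLAT (chr11:111896132-111935128, plus strand, GRCh37), which encodes the acetyltransferase core, was at 192 and 209 CPM with vehicle and at 185 and 189 CPM with LY500307. PDHX (chr11:34937376-35042138, plus strand), which encodes the protein that binds the dihydrolipoamide dehydrogenase to that core, was at 78.6 and 74.6 CPM with vehicle and at 71.8 and 66.4 CPM with LY500307. In both genes the treated samples were below the vehicle samples by a margin smaller than the gap between the vehicle samples. The log2 fold changes were -0.10 (SE 0.10, 95% interval -0.33 to 0.13) for DLAT and -0.15 (SE 0.10, 95% interval -0.39 to 0.09) for PDHX. Their adjusted p were 0.671 and 0.545, and that of PDHB was 0.80 (edgeR quasi-likelihood, Benjamini-Hochberg). For DLAT the sign depended on the scaling, with 0.03 after the GC correction. The exons of PDHA1, DLAT and PDHX overlap genes on the other strand (MAP3K15 over 956 bases, PIH1D2 over 1004 and APIP over 152), and these neighbours were all counted at lower levels. Those of PDHB overlap a non-coding RNA gene on the other strand over 360 bases, which was not among the counted symbols.

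**Figure D4:**
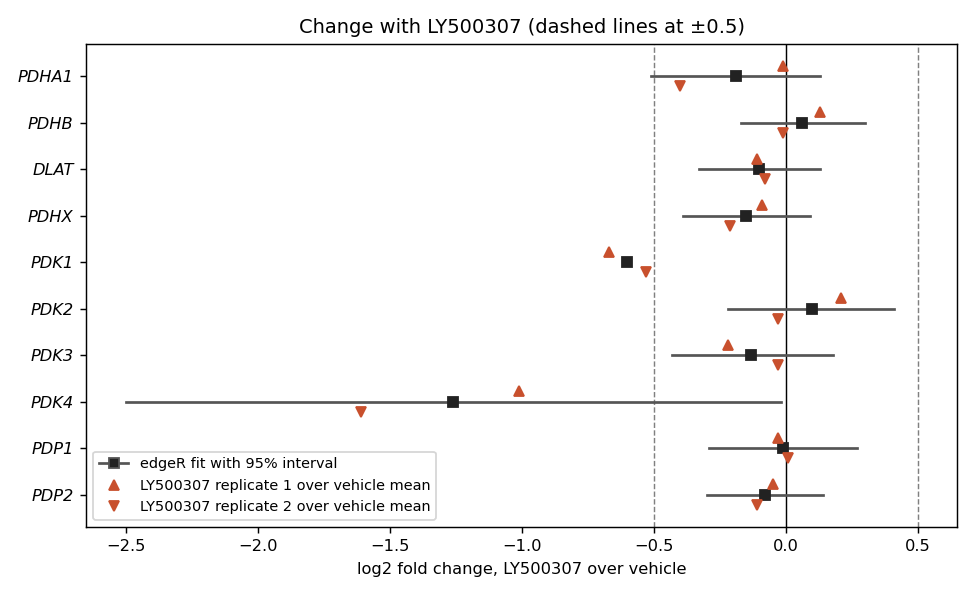
log2 fold change of each gene, LY500307 over vehicle, from the edgeR fit (squares) with its 95% interval (lines, not drawn for PDK1, which was selected on these counts), and the value of each LY500307 replicate against the vehicle mean (triangles). Dashed lines mark the size of 0.5 used for calls. PDK1 lies at -0.60 with both replicates beyond -0.5, PDK4 at -1.26 with an interval down to -2.50, and the other 8 genes between -0.19 and 0.10.

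The remaining parts of the enzyme and its cofactors were read from a list of 17 genes, all of which were tested. Of these, 1 was called higher (MECR), none was called lower and the others were not called, where 2.76% of all genes were called higher, and the median log2 fold change was -0.01, against 0.00 over all genes tested. MECR, an enzyme of the mitochondrial fatty acid synthesis that supplies the lipoyl group of DLAT, was at 10.1 and 10.3 CPM with vehicle and at 12.7 and 16.3 CPM with LY500307. Its log2 fold change was 0.51 (SE 0.18, 95% interval 0.10 to 0.92), and it was called in 5 of 8 settings with all samples and lost the call without vehicle replicate 1 (0.49), without vehicle replicate 2 (0.53) and without LY500307 replicate 2 (0.32). MCAT, which acts in the same synthesis, had a log2 fold change of 0.46 (SE 0.13) and was below the size required. The adjusted p of both was 0.422 (edgeR quasi-likelihood, Benjamini-Hochberg).

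DLD, the dihydrolipoamide dehydrogenase shared with the sister complexes, was at 162 and 164 CPM with vehicle and at 146 and 140 CPM with LY500307 (log2 fold change -0.18, SE 0.10). PDPR, which encodes the regulatory subunit of the phosphatase, was at 160 and 167 CPM with vehicle and at 157 and 174 CPM with LY500307 (0.02, SE 0.10). DLD was lower without overlap and PDPR overlapped, and neither was called.

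Genes around the complex were read from further lists. Of 10 tested genes that supply pyruvate or lead it elsewhere, 0 were called at the criteria above by edgeR and also by DESeq2, and their median log2 fold change was -0.05. The mitochondrial pyruvate carrier genes MPC1 and MPC2 (counted under the older symbols BRP44L and BRP44) had log2 fold changes of -0.06 (SE 0.19) and -0.04 (SE 0.13). LDHA, the lactate dehydrogenase subunit that favours lactate, was at 740 and 738 CPM with vehicle and at 637 and 516 CPM with LY500307, a log2 fold change of -0.36 (SE 0.13) that did not reach the size of a call, and it was the 1 gene of this list with an unadjusted p below 0.05. LDHB, the other main subunit, was at 1051 and 1078 CPM with vehicle and at 1098 and 1097 CPM with LY500307 (0.04, SE 0.10). PC, pyruvate carboxylase, had a log2 fold change of 0.17 (SE 0.22). No gene was called among the 9 tested genes of the sister 2-oxoacid dehydrogenase complexes (median 0.15), the 7 of acetyl-CoA use (median 0.06) or the 4 protein-level regulators of the complex, 3 sirtuins and the protease LONP1 (median -0.01), and 0 of these genes had an unadjusted p below 0.05 with edgeR. BCKDK, the kinase of the branched-chain complex and a relative of the PDH kinases, was at 62.9 and 67.1 CPM with vehicle and at 66.8 and 77.6 CPM with LY500307 (0.15, SE 0.12). The highest value in the sister complexes was that of OGDHL, at 0.28 (SE 0.17).

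Lists of transcription factors and of their targets give the context of PDK1 and PDK4. Of 12 tested factors known to act on PDK genes, 0 were called by edgeR or DESeq2 (median log2 fold change 0.02), 0 had an unadjusted p below 0.05 with edgeR, and PPARG and PPARGC1A had too few reads to be tested. HIF1A, the oxygen-regulated subunit of HIF-1, was at 280 and 285 CPM with vehicle and at 281 and 231 CPM with LY500307 (-0.15, SE 0.12), so the groups overlapped. EPAS1, its close relative, was near 1 CPM and had a log2 fold change of 0.66 (SE 0.37) without being called.

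Among 19 tested HIF-1 target genes other than PDK1, 2 were called lower (ADM and HK2) and none was called higher, where 1.86% of all genes were called lower and 2.76% higher. The number called lower was 4 without LY500307 replicate 1, 3 without LY500307 replicate 2 and 1 without vehicle replicate 1, where 1 gene was also called higher. The log2 fold change was negative in 15 of the 19, against 7240 of the 14473 genes tested, and in 11 of the 19 when LY500307 replicate 1 was left out. Their median was -0.22, against 0.00 over all genes tested, and it lay between -0.25 and -0.18 in the 8 settings with all samples. The levels of 11 of the 19 were lower in both LY500307 samples than in either vehicle sample, where 24.4% of all genes were. ADM, which encodes the peptide adrenomedullin, was at 13.7 and 13.9 CPM with vehicle and at 6.89 and 7.95 CPM with LY500307. Its log2 fold change was -0.89 (SE 0.17, 95% interval -1.28 to -0.50). HK2, the hexokinase that starts glycolysis in many tumour cells, was at 157 and 151 CPM with vehicle and at 112 and 103 CPM with LY500307. Its log2 fold change was -0.52 (SE 0.10, 95% interval -0.75 to -0.29). Like PDK1, HK2 was already named by the study as downregulated in these same samples, so its call is not separate evidence. The study also measured selected genes by RT-qPCR in OCSCs of SKOV3 and of A2780, another ovarian cancer line, which these counts do not cover. The call of HK2 was lost with library totals as the only scaling (-0.48), without vehicle replicate 1 (-0.49) and without LY500307 replicate 2 (-0.46), whereas ADM was called in each of these settings. BNIP3L, a mitophagy receptor gene, had -0.47 (SE 0.10) and was not called, and EGLN3, a prolyl hydroxylase gene near 2 CPM, had the highest value of the list at 0.50 (SE 0.42). The adjusted p was 0.422 for ADM and for HK2 (edgeR quasi-likelihood, Benjamini-Hochberg), and the lists were written with earlier results of these samples known, so the counts are not independent evidence of a direction.

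Among 9 tested PPAR target genes, the group of genes that commonly accompanies PDK4, 0 were called by edgeR or DESeq2, 0 had an unadjusted p below 0.05 with edgeR and the median log2 fold change was -0.03. CPT1A, which admits fatty acids to mitochondria, was at 26.4 and 24.6 CPM with vehicle and at 21.8 and 21.6 CPM with LY500307 (-0.24, SE 0.13). ANGPTL4, a lipase inhibitor, also had -0.24 (SE 0.20), and PLIN2, a lipid droplet coat protein, had 0.11 (SE 0.11).

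**Figure D5:**
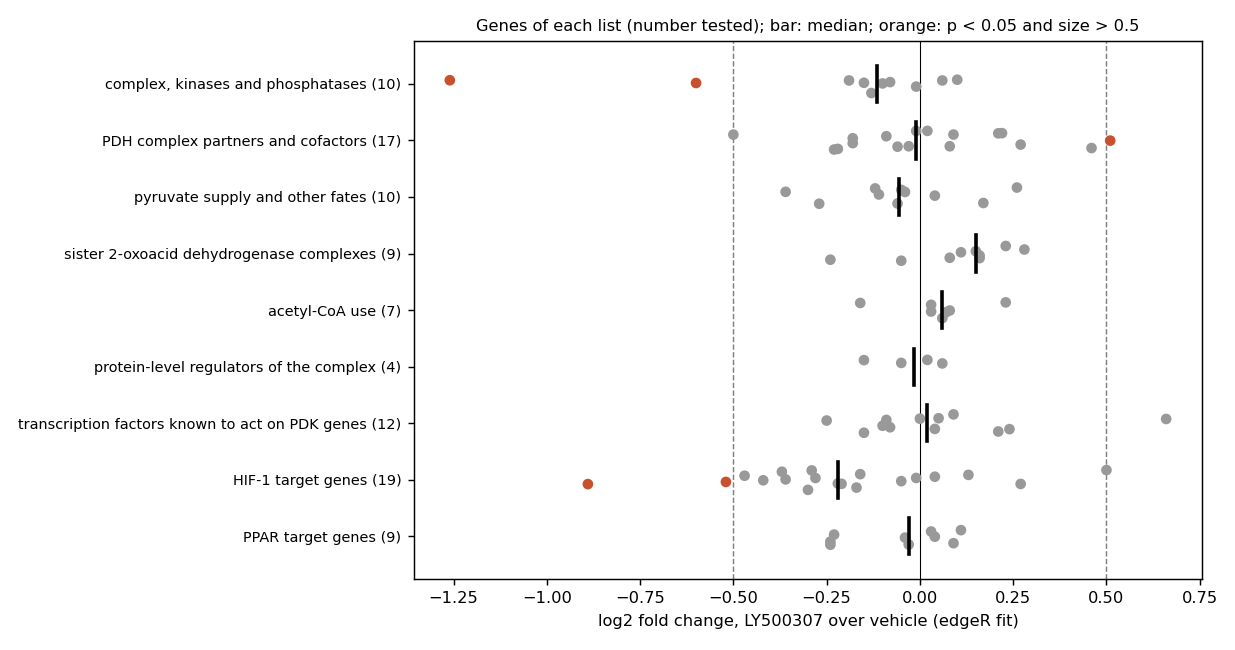
log2 fold change, LY500307 over vehicle, of every tested gene (points) in the 10-gene group and in 8 lists around it, with the median of each as a bar. Orange points are called genes, and dashed lines mark the size of 0.5. The 19 HIF-1 target genes lie mostly to the left of 0 with a median of -0.22, and 1 cofactor gene is called on the right.

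Across the 8 lists, 3 of 86 different genes tested were called. This number was 8 without LY500307 replicate 1 and 2 when either vehicle sample was left out. The share of all genes called in either direction, 4.62%, stands beside it.

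The genes most like PDK1 over the 4 samples were found by the distance between centred log2 CPM values among 9853 genes with a mean of at least 10 CPM. The nearest were PPFIA4 (distance 0.107 on the log2 scale), INSIG2 (0.109), TMOD2 (0.111), C2orf63 (0.114) and SGK494 (0.125). Each was lower in both LY500307 samples than in either vehicle sample. With 4 samples in 2 groups, any gene lower by a like amount in both treated samples comes out near, so the likeness is a description only.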

How the data were processed

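RNA-seq counts of 2 vehicle and 2 LY500307 samples were analysed, grouped by their treatment labels. The deposited files hold raw counts per gene symbol, which the authors made with TopHat2 2.0.8b (alignment to hg19) and HTSeq, per the labels. The strand setting and the annotation release are not given in the sources used here. The methods describe stranded mRNA libraries, whereas the labels describe total RNA libraries with single-end reads. Nothing says whether replicates were separate cultures, so p-values measure only the spread between these samples, which may be technical. Tally lines outside genes were left out, and reads on no gene were 25.5% to 30.8% of reads tallied to genes, to no gene or ambiguously.

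The test across all genes used edgeR 4.0.16 in R 4.3.3 (TMM, filterByExpr, quasi-likelihood test, Benjamini-Hochberg adjustment over all genes tested), fitted on the whole table. Calls required p below 0.05 before adjustment and a log2 fold change above 0.5 in size, and the SE of a log2 fold change was its size over the root of F. Alternatives were DESeq2 1.42.0, edgeR with DESeq2 size factors, scaling by library totals, no filter on low counts, a replicate block, a GC correction (a loess curve of span 0.3 on log2 CPM with prior count 2), both together, and leaving out each sample. A GRCh37 annotation gave gene lengths and GC content and matched 91.8% of symbols, and the canonical transcript as a length was added after the data were seen. The procedure was tested on simulated data in which 200 genes were changed by a log2 fold change of 1 in size. Both criteria were met by 90.5% of these, and 287 unchanged genes were also called. With no change simulated, 264 of 14244 genes were called, so calls at these criteria include false ones.

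The 10 genes and the lists, written from general knowledge, were chosen with earlier results of these data known. Named genes were the 10 genes, from each list the called genes and those with the largest changes (up to 4) beside a set of fixed names, and the 5 genes nearest to PDK1. BCKDK and genes that overlap a member were named outside this rule, after their values were seen. One gene under the rule is not reported here and was left out of its list.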

Additional observations from a re-analysis of the deposited data

How the results depend on the processing

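Of the log2 fold changes of the 10 genes over the settings, 9 changed sign under an alternative, all in genes of the group that were never called. Changes of sign in the genes of the lists were not counted here. With 1 sample left out PDK2 ranged from -0.02 to 0.21, PDHB from -0.01 to 0.13 and PDP1 from -0.05 to 0.04, PDK2 and PDHB being negative only without LY500307 replicate 1. PDP1 was 0.03 with library totals, 0.06 with the GC correction, 0.06 with the GC correction and replicate block together, 0.04 without vehicle replicate 2 and 0.01 without LY500307 replicate 1. DLAT was 0.03 with the GC correction, with and without the replicate block. PDK1 ranged from -0.67 to -0.53 when 1 sample was left out and was -0.60 with the replicate block. With the GC correction PDK1 was at -0.50 (SE 0.12), just short of the size that a call requires. All these settings refit the counts on which PDK1 was selected, so the PDK1 values are a description and not separate support. PDK4 kept its direction but missed the threshold with library totals (-1.23), DESeq2 (-1.27), no filter (-1.26), the replicate block (-1.27), the GC correction (-1.12) and both (-1.14), and with each sample left out in turn (-1.59 to -1.0), and its adjusted p lay between 0.427 and 0.602 over the settings with all samples that gave one. The number of the 10 genes called was accordingly 2, but 1 in each of these settings other than the GC correction, where it was 0, and 1 with any sample left out. The cause of these shifts was not tested.

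Genes with an adjusted p below 0.05 numbered 16 with DESeq2, 1 with the replicate block, 3 with the block and GC correction, and 0 to 5002 with a sample left out, where a lone sample is assumed to vary like the other group. Calls over all genes were then 352 to 1987, and calls in the lists 2 to 8. Replicate numbers did not pair the samples (correlation of deviations -0.07), and the block alone gave 717 calls. The mean length-scaled share of PDK1 was 26.7% and 19.1% (vehicle and LY500307) with the longest transcript and 12.9% and 9.27% with the canonical one. Depth limits PDK4, with 8 to 22 reads, more than any of the other 9 genes.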
